A study of Xenopus laevis with 12 samples.

Results

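Glycolysis splits glucose into pyruvate in a chain of cytosolic enzymes, and pyruvate is then either reduced to lactate and exported or passed into mitochondria and oxidised by pyruvate dehydrogenase. Hexokinase, phosphofructokinase and pyruvate kinase catalyse the steps that are practically irreversible in the cell, and the bifunctional PFKFB enzymes set the level of fructose 2,6-bisphosphate, an activator of phosphofructokinase. In embryos of the frog Xenopus laevis, as in other yolk-rich embryos, cells carry their own nutrient stores, and genes of carbohydrate metabolism are among those that differ between embryonic tissues.

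The genes described here were chosen by name: sugar transporters (slc2a), enzymes of glycolysis, PFKFB regulators, lactate dehydrogenases, monocarboxylate transporters (slc16a), and subunits and kinases of pyruvate dehydrogenase. Of 19252 genes with a name in either of the authors' deposited tables, 87 matched by name, and 77 had a mean normalised count of at least 10 at 1 stage or both. Just inside this minimum per the authors' deposited tables were slc2a15a.L, with means of 11.6 at stage 14 and 9.76 at stage 17, and pgam1.S, with 12.2 and 7.14. Just outside were slc2a7.L at 9.38 and slc2a4.L at 8.47, both at stage 17. The name also takes in pgam5, a mitochondrial protein phosphatase, and pkmyt1, a kinase that inhibits the mitotic cyclin-dependent kinase, which are not steps of the pathway. Most genes of this allotetraploid species occur as 2 copies, called homeologs and named .L and .S. Reads of near-identical copies can be split between them with less certainty, so a single copy's values carry more uncertainty than a pair's. The row named pgk1, with no letter for a copy, stands beside pgk1.L, and how reads were divided between these rows is not known.

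The study compared neural crest tissue of embryos injected with a morpholino, an antisense oligonucleotide analogue, against the microRNA miR-196a with tissue of embryos injected with a mismatch morpholino, the control, in which some bases are changed. All embryos were wild-type, received 60 ng into the right dorsal blastomere when they had 4 cells, and grew until stage 14 or 17 of Nieuwkoop and Faber, neurula stages at which the neural crest is forming. Each arm had 3 samples at each stage, 12 in all. Labels do not say whether samples came from separate batches of embryos, or whether the tissue was taken from the injected side alone, and the label for the batch repeats the stage. The series' title names neural crest patterning and immature neural ectoderm as the subjects, and the comparison of arms asks which transcripts depend on miR-196a.

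For each gene the authors' deposited tables hold the normalised count averaged over samples, the log2 ratio of the arms and its standard error (SE), and p-values before and after adjustment. Values per sample were not used here. Neither headers nor labels name the numerator of the fold change. Signs are therefore given as deposited, with a positive value meaning a higher level in the numerator arm. Levels in both arms were computed from the mean and the fold change, and are means of normalised counts not corrected for gene length, so that levels are compared within a gene. Depth per library is unknown. The marker lists for cell types show both the labelled tissue and its neighbours in these samples. In the authors' deposited tables, 13 of 14 neural crest genes were negative past an adjusted p of 0.05 at stage 14 and 3 of 14 at stage 17, and their summed level was 3141 in the numerator arm and 30471 in the denominator arm at stage 14, and 39496 and 81561 at stage 17. Epidermal genes were negative past the threshold in 7 of 10 and 6 of 11 cases, with sums of 25444 and 153967 at stage 14 and 61927 and 185016 at stage 17, numerator arm first. Neural plate genes were positive past the threshold in 2 of 9 and 8 of 9 cases, with sums of 40395 and 25259 at stage 14 and 26813 and 4758 at stage 17. Ionocyte genes passed on the negative side in 1 of 6 cases at each stage, with sums of 256 and 1830 at stage 14 and 231 and 1131 at stage 17. Multiciliated genes did so in 2 of 6 and 0 of 6 cases, with sums of 229 and 2180 at stage 14 and 426 and 856 at stage 17. Over all genes tested, 5.62% were negative and 3.06% positive past the threshold at stage 14, and 5.00% and 4.96% at stage 17. Fewer cells of a type and less RNA per cell cannot be told apart in such bulk samples. The part of these shifts in the results below was not tested. Labels give no further evidence on separate cultures, so p-values measure the spread between these samples, which may be technical.

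Of the 77 genes of glycolysis and pyruvate metabolism, 13 (16.9%) had an authors' adjusted p-value under 0.05 at stage 14, against 8.68% of all genes tested, and 5 of the 13 were positive and 8 negative. At stage 17 the authors' deposited table gave 17 of 75 (22.7%), against 9.96% of all genes, with 10 positive and 7 negative. By direction, 6.49% were positive and 10.4% negative at stage 14, against 3.06% and 5.62% of all genes, and 13.3% and 9.33% at stage 17, against 4.96% and 5.00%. Here and below, all genes tested include genes with means under the minimum of 10 set for members, where errors are larger. The share over genes with a mean of at least 10 was not computed, so these shares are not matched for count. The threshold was passed at both stages by 10 genes, which are 76.9% of those of stage 14 and 58.8% of those of stage 17, and all 10 had the same sign at both. They were hk1.L, hk2.S, pfkp.L, pfkfb4.S and slc2a12.L on the negative side and gpi.S, pfkfb3.S, pkm.L, pkm.S and pdk4.S on the positive side. The matching overlap and sign agreement over all genes were not computed, so neither is read as particular to these genes. The changes ran in both directions within the pathway. The median log2 fold change over the genes tested was 0.07 at stage 14 and 0.24 at stage 17, against 0.02 and -0.0026 over all genes per the authors' deposited tables. Of the 77 genes, 57 passed the threshold at neither stage.

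Of all genes tested, 3.06% were positive and 5.62% negative past the threshold at stage 14, and 4.96% and 5.00% at stage 17. The counts by role, here and in the paragraphs below, stand beside these same shares. With so few genes per role, they are not read as particular to a role. Among the 12 sugar transporters, the threshold was passed on the negative side by 2 at stage 14 and by 1 at stage 17, and 0 were positive past it at either stage. The clearest was slc2a12.L, whose mammalian counterpart GLUT12 is a facilitative glucose transporter. Its level at stage 14 was 18.6 normalised counts in the numerator arm, against 206 in the denominator arm, a log2 fold change of -3.47 (SE of 0.84, adjusted p = 0.00113) per the authors' deposited table. At stage 17 the levels of slc2a12.L were 51.8 and 371, a change of -2.84 (SE of 0.49, adjusted p = 8.91e-07) per the authors' deposited table. The arms thus differed 11.1-fold at stage 14 and 7.17-fold at stage 17. The gene slc2a2 encodes GLUT2, known from liver and pancreatic beta cells of mammals as a low-affinity transporter. The copy slc2a2.S stood at 108 in the numerator arm and 331 in the denominator arm at stage 14, with a log2 fold change of -1.62 (SE of 0.54, adjusted p = 0.0342) per the authors' deposited table. At stage 17, slc2a2.S had 233 and 367, with -0.66 (SE of 0.35, adjusted p = 0.259), per the authors' deposited table. The copy slc2a2.L had 2504 and 3611 at stage 14 and 2028 and 1384 at stage 17, with log2 fold changes of -0.53 (SE of 0.28) and 0.55 (SE of 0.32) that were not past the threshold per the authors' deposited tables.

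For slc2a1, which encodes the widely expressed transporter GLUT1, neither copy passed the threshold. The authors' deposited tables gave slc2a1.L 0.01 (SE of 0.73) at stage 14 and -0.77 (SE of 0.63) at stage 17, and slc2a1.S -0.07 (SE of 0.70) and -0.88 (SE of 0.60). These errors are wide: the 95% interval of slc2a1.L at stage 14 ran from -1.42 to 1.44, and by its error a log2 change of 2.08 would have been needed to pass there. The slc2a9 copies, whose human counterpart transports urate, were at 2.19 (SE of 0.88, adjusted p = 0.101) for .S and -1.38 (SE of 0.83, adjusted p = 0.351) for .L at stage 17 per the authors' deposited table. The remaining slc2a8.L, slc2a10.S, slc2a11.3.S, slc2a13.S and slc2a15a.L had log2 fold changes between -2.03 and 2.36 over both stages, none of them past the threshold, at mean counts of at most 95.5.

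**Figure D1:**
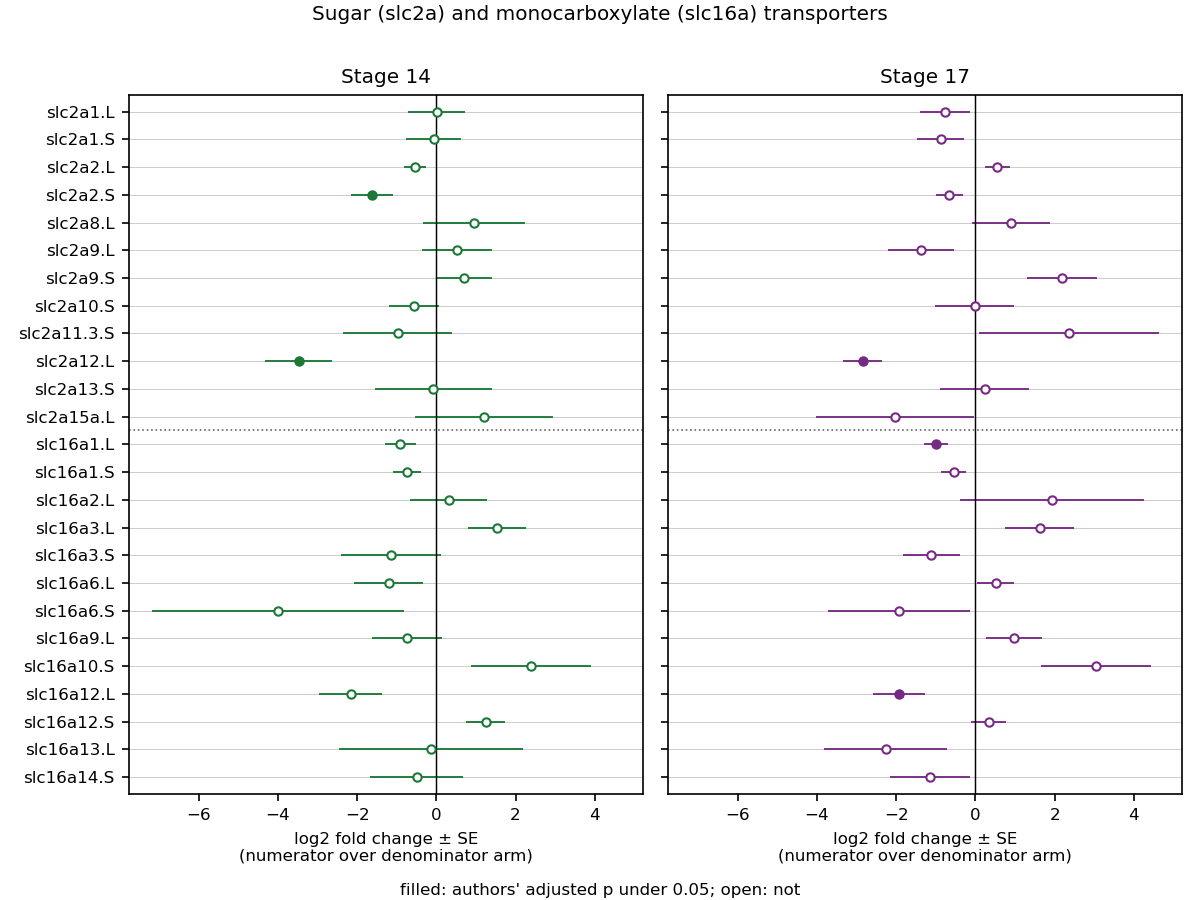
Log2 fold change of the numerator over the denominator arm (points) with its standard error (bars) for 12 slc2a and 13 slc16a genes at stage 14 (left) and stage 17 (right), with filled points for genes past the authors' adjusted p of 0.05. The filled points are negative: slc2a2.S at stage 14, slc2a12.L at both stages, and slc16a1.L and slc16a12.L at stage 17.

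Of the 16 genes of upper glycolysis, 1 was positive and 3 were negative past the threshold at stage 14, and 3 were positive and 3 negative at stage 17. The negative genes were the same at both stages, hk1.L, hk2.S and pfkp.L, and they encode hexokinases and a phosphofructokinase, enzymes of early steps. Hexokinase phosphorylates glucose on entry. For hk1.L the levels at stage 14 were 22.1 in the numerator arm and 233 in the denominator arm, 10.5-fold lower, with a log2 fold change of -3.40 (SE of 0.64, adjusted p = 8.73e-06) per the authors' deposited table. At stage 17 hk1.L had 195 and 770, 3.95-fold lower, with -1.98 (SE of 0.52, adjusted p = 0.00322), per the authors' deposited table. The second isoenzyme changed in the same direction. For hk2.S the authors' deposited tables gave -2.93 (SE of 0.96, adjusted p = 0.0307) at stage 14, with levels of 154 and 1171, and -2.02 (SE of 0.58, adjusted p = 0.00964) at stage 17, with levels of 234 and 948. The copy hk2.L was at -1.12 (SE of 0.46, adjusted p = 0.123) and -1.58 (SE of 0.58, adjusted p = 0.0622) per the authors' deposited tables, with levels of 154 and 335 at stage 14 and 113 and 338 at stage 17. With both copies averaged, hk2 passed the threshold at both stages, at -2.02 (SE of 0.53, adjusted p = 0.00221) and -1.80 (SE of 0.41, adjusted p = 2.49e-04) by a normal test with Benjamini-Hochberg adjustment. Here and below, the test of averages treats copies from the same libraries as independent, and its adjustment covers homeolog pairs only. The fold changes of all 3 hexokinase genes were negative at both stages, for hk2.L without passing the threshold. The SE of hk2.S at stage 14 exceeded that of 97.5% of the 200 genes nearest to it in mean count, whose median was 0.34.

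Phosphofructokinase, the main control point of the pathway, was represented by the muscle-type pfkm and the platelet-type pfkp, and the name rule found no row for pfkl. At stage 14 pfkp.L was at 0.19 in the numerator arm, under the floor of 3 normalised counts, and at 124 in the denominator arm, so that its level was at least 41.4-fold lower in the numerator arm. Its fitted change per the authors' deposited table, -9.35 (SE of 1.43, adjusted p = 9.24e-09), is not a measure of size for that reason. At stage 17 both arms of pfkp.L were above the floor, at 96.8 and 515, with a log2 fold change of -2.41 (SE of 0.53, adjusted p = 2.72e-04) per the authors' deposited table. The muscle-type pfkm.S was not past the threshold at either stage. It had 1547 and 2388 at stage 14 and 2696 and 2706 at stage 17, with changes of -0.63 (SE of 0.27, adjusted p = 0.138) and -0.01 (SE of 0.25, adjusted p = 0.994) per the authors' deposited tables. The 95% interval of pfkm.S at stage 17, -0.50 to 0.49, was the narrowest of the members at that stage.

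The positive genes of upper glycolysis past the threshold were gpi.S at both stages, and aldoa.L and tpi1.S at stage 17. The isomerase encoded by gpi.S, which acts between hexokinase and phosphofructokinase, converts glucose 6-phosphate to fructose 6-phosphate. This gene had 315 in the numerator arm and 110 in the denominator arm at stage 14, and 105 and 26.6 at stage 17. Its log2 fold changes per the authors' deposited tables were 1.52 (SE of 0.53, adjusted p = 0.0460) and 1.98 (SE of 0.65, adjusted p = 0.0292). With fold changes centred on the median of genes with a mean of at least 100, gpi.S at stage 14 had an adjusted p of 0.0515 by the normal test. There the Benjamini-Hochberg adjustment was also recomputed over every p-value. That adjustment alone, on the authors' p-values without centring, gave gpi.S 0.0488. Its homeolog gpi.L was at -1.26 (SE of 0.57, adjusted p = 0.176) and 0.58 (SE of 0.87, adjusted p = 0.789), per the authors' deposited table. The aldolase gene aldoa.L, which encodes the enzyme that splits fructose 1,6-bisphosphate, passed at stage 17, with 1123 against 559 and a change of 1.01 (SE of 0.30, adjusted p = 0.0125) per the authors' deposited table. At stage 14, aldoa.L was at 0.40 (SE of 0.30, adjusted p = 0.518), per the authors' deposited table. Triose phosphate isomerase interconverts the products of that split. For tpi1.S the authors' deposited tables gave 1.01 (SE of 0.43, adjusted p = 0.141) at stage 14, with 741 and 368, and 1.73 (SE of 0.37, adjusted p = 1.80e-04) at stage 17, with 523 and 158. The genes aldoc.L, tpi1.L, aldoa.S, pfkm.L and pfkp.S were not past the threshold at either stage per the authors' deposited tables.

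**Figure D2:**
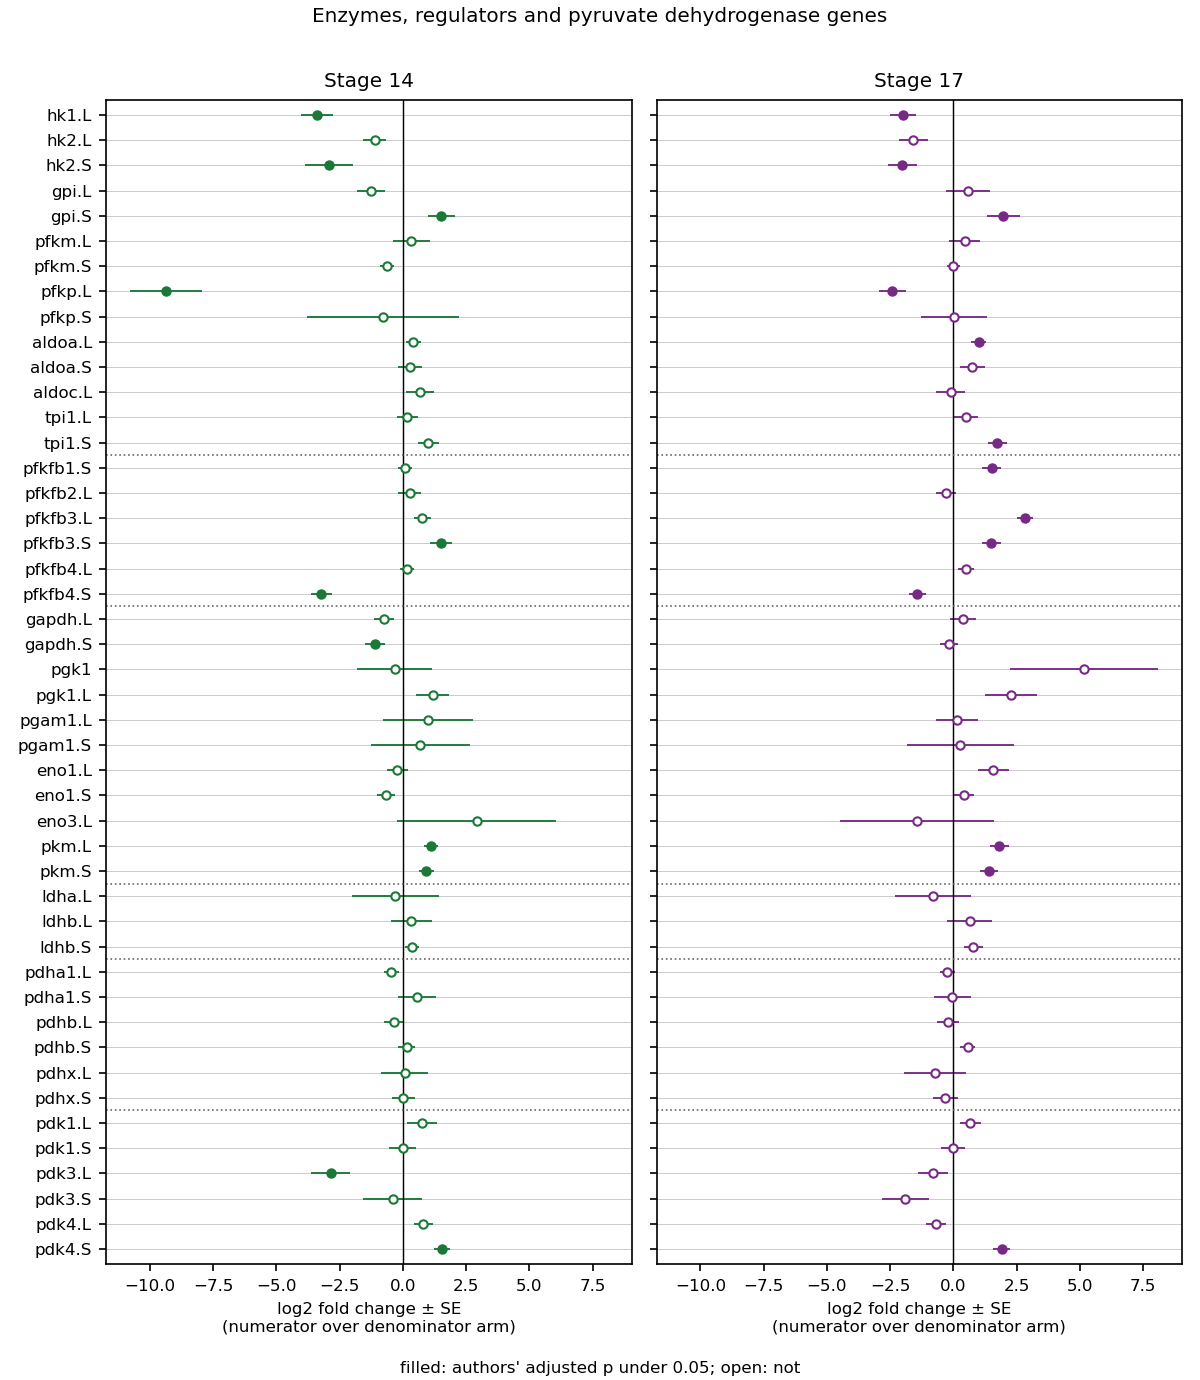
Log2 fold change of the numerator over the denominator arm (points) with its standard error (bars) for enzymes and regulators in the order of the pathway, at stage 14 (left) and stage 17 (right), with filled points past the authors' adjusted p of 0.05 and dotted lines between functional groups. The hexokinase genes and pfkp.L lie left of 0 at both stages, gpi.S, pfkfb3 and pkm lie right of it, and at stage 14 the numerator arm of pfkp.L is under the floor of 3 normalised counts.

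Of the 6 genes for bifunctional regulators, 1 was positive and 1 negative past the threshold at stage 14, and 3 were positive and 1 negative at stage 17. PFKFB3, which in mammals has the highest ratio of kinase to phosphatase activity in the family, was higher in the numerator arm in both copies at stage 17. For pfkfb3.L the levels were 2904 and 406, 7.16-fold higher, with a log2 fold change of 2.84 (SE of 0.31, adjusted p = 6.02e-17) per the authors' deposited table, the lowest p-value of all members at that stage. For pfkfb3.S they were 551 and 194, with 1.51 (SE of 0.39, adjusted p = 0.00303), per the authors' deposited table. At stage 14 pfkfb3.S was again at 1.51 (SE of 0.43, adjusted p = 0.00863), with 1708 and 599, and pfkfb3.L at 0.77 (SE of 0.35, adjusted p = 0.180), with 5318 and 3119, per the authors' deposited table. The stage 14 errors of pfkfb3.S and pfkfb3.L exceeded those of 98% and 94% of the 200 genes nearest in mean count.

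The related pfkfb4.S went the other way. It had 312 in the numerator arm and 2922 in the denominator arm at stage 14, 9.36-fold lower, with -3.23 (SE of 0.42, adjusted p = 9.27e-12) per the authors' deposited table, the lowest p-value of all members at that stage. At stage 17 pfkfb4.S had 868 and 2322, 2.67-fold lower, with -1.42 (SE of 0.35, adjusted p = 0.00183), per the authors' deposited table. Its homeolog pfkfb4.L had 1590 and 1410 at stage 14 and 817 and 579 at stage 17, with changes of 0.17 (SE of 0.28, adjusted p = 0.837) and 0.50 (SE of 0.31, adjusted p = 0.385) per the authors' deposited tables. The 95% intervals of the copies were -0.37 to 0.72 for pfkfb4.L and -4.06 to -2.40 for pfkfb4.S at stage 14, and -0.12 to 1.11 and -2.11 to -0.72 at stage 17. The copies come from the same libraries, so their difference was not tested. For pfkfb1.S, the counterpart of the liver-type isoenzyme, levels were 1391 and 1317 at stage 14, where its change was 0.08 (SE of 0.28), and 736 and 257 at stage 17, where it was 1.52 (SE of 0.39, adjusted p = 0.00235) per the authors' deposited tables. The cardiac-type pfkfb2.L was at 0.27 (SE of 0.44) and -0.29 (SE of 0.39) per the authors' deposited tables.

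In lower glycolysis, 2 of 11 genes were positive and 1 negative past the threshold at stage 14, while 2 of 10 were positive and 0 negative at stage 17. The positive genes were both copies of pkm, which encodes pyruvate kinase, the last enzyme of the chain. At stage 14 pkm.L had 2312 in the numerator arm and 1076 in the denominator arm, and pkm.S 1082 and 570, with log2 fold changes of 1.10 (SE of 0.29, adjusted p = 0.00330) and 0.92 (SE of 0.31, adjusted p = 0.0355) per the authors' deposited table. At stage 17 pkm.L had 1103 and 314, and pkm.S 538 and 202, with 1.81 (SE of 0.37, adjusted p = 5.27e-05) and 1.41 (SE of 0.36, adjusted p = 0.00232), per the authors' deposited table. The pkm copies were the only pair among the members past the threshold in both copies at both stages. Which splice form of pkm was measured is not given at the level of genes.

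The negative gene among these was gapdh.S, whose product oxidises glyceraldehyde 3-phosphate and whose transcript is often used as a reference in expression assays. It had 370 in the numerator arm and 795 in the denominator arm at stage 14, a change of -1.10 (SE of 0.38, adjusted p = 0.0461), and 413 and 467 at stage 17, a change of -0.18 (SE of 0.37, adjusted p = 0.858), per the authors' deposited tables. For gapdh.L the changes at the stages were -0.75 (SE of 0.40, adjusted p = 0.299) and 0.38 (SE of 0.53, adjusted p = 0.770), per the authors' deposited table. With both copies averaged, gapdh was at -0.92 (SE of 0.28, adjusted p = 0.0101) at stage 14 by the normal test. The enolase gene eno1.L stood at 697 and 813 at stage 14 and at 550 and 184 at stage 17, with -0.22 (SE of 0.41, adjusted p = 0.869) and 1.58 (SE of 0.61, adjusted p = 0.0798) per the authors' deposited tables. Its SE at stage 17 exceeded that of 96.5% of the 200 genes nearest in mean count, whose median was 0.37. Its homeolog eno1.S was at -0.66 (SE of 0.35, adjusted p = 0.296) and 0.41 (SE of 0.39, adjusted p = 0.628) per the authors' deposited tables. Phosphoglycerate kinase, pgk1.L, was at 1.17 (SE of 0.64, adjusted p = 0.308) and 2.28 (SE of 1.02, adjusted p = 0.157), at means of only 73.0 and 43.1, per the authors' deposited table. The copies of pgam1, which encodes phosphoglycerate mutase, had means of 7.14 to 40.9, and neither copy passed the threshold: by their errors, log2 changes of 5.08 and 5.61 at stage 14 and of 2.33 and 5.94 at stage 17 would have been needed for pgam1.L and pgam1.S. The muscle enolase eno3.L had a mean of 51.8 at stage 17 with an SE of 3.04 per the authors' deposited table, larger than that of 99% of the 200 genes nearest in mean count. The summed levels of the muscle markers were 113 and 146 at stage 14 and 140 and 220 at stage 17.

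**Figure D3:**
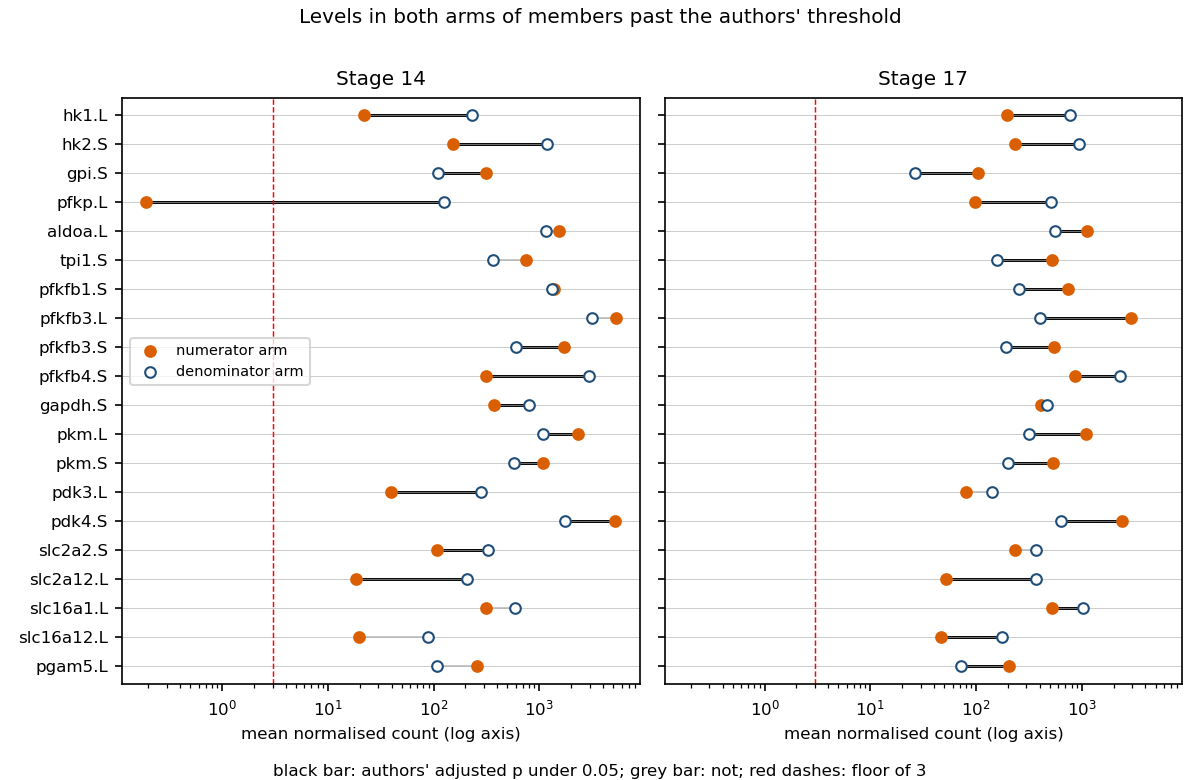
Mean normalised count (log axis) in the numerator arm (filled orange) and the denominator arm (open blue) of the 20 members past the authors' threshold at 1 stage or both, with black bars where the adjusted p was under 0.05 at that stage and a dashed line at the floor of 3. Filled points lie left of open ones for hk1.L, hk2.S, pfkp.L, pfkfb4.S and slc2a12.L and right of them for gpi.S, pfkfb3.S, pkm.L, pkm.S and pdk4.S, in both panels.

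At the fate of pyruvate, the lactate dehydrogenases did not pass the threshold. Of the 3 genes, ldhb.S had 3695 in the numerator arm and 2907 in the denominator arm at stage 14 and 2611 and 1519 at stage 17, with log2 fold changes of 0.35 (SE of 0.28, adjusted p = 0.567) and 0.78 (SE of 0.37, adjusted p = 0.198) per the authors' deposited tables. The gene ldha.L, for the subunit that favours lactate formation in mammals, was low, at means of 22.5 and 12.3, with intervals of -3.67 to 3.06 and -3.74 to 2.12.

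Monocarboxylate transporters carry lactate and pyruvate across the cell membrane together with protons. Of the 13 slc16a genes, 0 were past the threshold at stage 14, where 5 of them had an unadjusted p-value under 0.05, and 2 of 12 were negative past it at stage 17. The share of all genes with an unadjusted p-value under 0.05 at stage 14 was not computed. The widely expressed transporter slc16a1 (MCT1) was lower in the numerator arm in its copy slc16a1.L at stage 17, with 520 against 1035 and a change of -0.99 (SE of 0.30, adjusted p = 0.0156) per the authors' deposited table. At stage 14, slc16a1.L had 312 and 588, with -0.91 (SE of 0.39, adjusted p = 0.141), per the authors' deposited table. The copy slc16a1.S was at -0.73 (SE of 0.35, adjusted p = 0.218) and -0.55 (SE of 0.32, adjusted p = 0.315) per the authors' deposited tables. With both copies averaged, slc16a1 passed the threshold at both stages, at -0.82 (SE of 0.26, adjusted p = 0.0182) and -0.77 (SE of 0.22, adjusted p = 0.00491) by the normal test. The copies of slc16a12, whose human counterpart transports creatine, had opposite signs. In the authors' deposited tables slc16a12.L was at -2.16 (SE of 0.80, adjusted p = 0.0704) and -1.92 (SE of 0.65, adjusted p = 0.0390), and slc16a12.S at 1.24 (SE of 0.50, adjusted p = 0.108) and 0.34 (SE of 0.44, adjusted p = 0.747).

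For the lactate exporter slc16a3 (MCT4) the copy slc16a3.L stood at 14881 in the numerator arm and 5175 in the denominator arm at stage 14 and at 4264 and 1382 at stage 17. Although the fold was 2.88 and 3.09, the log2 fold changes of 1.52 (SE of 0.73, adjusted p = 0.214) and 1.63 (SE of 0.87, adjusted p = 0.272) were not past the threshold per the authors' deposited tables. The SE of slc16a3.L exceeded that of 99% of the 200 genes nearest in mean count at both stages, whose medians were 0.26 and 0.26. Its homeolog slc16a3.S was at -1.14 (SE of 1.27) and -1.11 (SE of 0.73) per the authors' deposited tables.

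Pyruvate dehydrogenase turns pyruvate into acetyl-CoA in mitochondria. None of its 6 genes, the copies of pdha1, pdhb and pdhx, passed the threshold at either stage per the authors' deposited tables. Of all genes tested, 8.68% passed at stage 14 and 9.96% at stage 17, so 0 of 6 is not read as particular to this complex. An unadjusted p-value under 0.05 was held by 0 of the 6, and that share was not computed over all genes within a stage. Their log2 fold changes lay between -0.46 and 0.54 at stage 14 and between -0.73 and 0.57 at stage 17. For pdha1.L, which encodes the alpha subunit of the first enzyme of the complex, levels were 1221 and 1678 at stage 14 and 800 and 940 at stage 17, with 95% intervals of -1.05 to 0.13 and -0.80 to 0.34.

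Of the 6 genes for kinases that phosphorylate and inactivate this complex, 1 was positive and 1 negative past the threshold at stage 14, and 1 was positive and 0 negative at stage 17. The gene pdk4, whose mammalian counterpart is induced by fasting, was positive in its .S copy at both stages. At stage 14 pdk4.S had 5163 in the numerator arm and 1766 in the denominator arm, and at stage 17 it had 2385 and 634. Its log2 fold changes per the authors' deposited tables were 1.55 (SE of 0.32, adjusted p = 4.74e-05) and 1.91 (SE of 0.34, adjusted p = 3.09e-06). The copy pdk4.L was at 0.81 (SE of 0.37, adjusted p = 0.181), with 472 and 270, and at -0.69 (SE of 0.41, adjusted p = 0.335), with 424 and 684, per the authors' deposited table. In contrast, pdk3.L was lower in the numerator arm at stage 14, with 39.2 against 283 and -2.85 (SE of 0.77, adjusted p = 0.00437), and at stage 17 it had 80.8 and 141, with -0.80 (SE of 0.59, adjusted p = 0.489), per the authors' deposited tables. Its homeolog pdk3.S, at means of 19.6 and 51.8, was at -0.40 (SE of 1.16) and -1.90 (SE of 0.92, authors' adjusted p = 0.206). With both copies averaged, pdk3 was at -1.63 and -1.35 (adjusted p = 0.111 and 0.0757 by the normal test). The pdk1 copies lay between -0.01 and 0.76 and did not pass at either stage.

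Outside the pathway proper, pgam5.L had 258 in the numerator arm and 109 in the denominator arm at stage 14, with 1.25 (SE of 0.49, adjusted p = 0.0928), and 207 and 71.3 at stage 17, with 1.54 (SE of 0.50, adjusted p = 0.0295), per the authors' deposited tables. The pkmyt1 copies were between 0.25 and 0.60 and not past the threshold.

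Of 29 pairs with both copies among the members, 19 had the same sign in both copies at stage 14 and 16 at stage 17 per the authors' deposited tables. At least 1 copy passed in 10 pairs at stage 14, and in 1 of these, pkm, both did. At stage 17 it was 12 pairs, and both copies of 2, pkm and pfkfb3, passed. The matching shares over all homeolog pairs were not computed, so these counts are not read as particular to the members. Besides pfkfb4, a passing copy stood beside a homeolog of opposite sign in gpi at stage 14 and in pdk4, pfkp and slc16a12 at stage 17, without the homeolog passing. For pfkp.S that value was only 0.04 (SE of 1.30), at a mean of 13.9, so its sign is not resolved. With copies averaged by the normal test, gpi was at 0.13 (adjusted p = 0.900) and 1.28 (adjusted p = 0.0939), pdk3 at stage 14 was at -1.63 (adjusted p = 0.111), and at stage 17 pdk4 was at 0.61 (adjusted p = 0.105), pfkfb4 at -0.46 (adjusted p = 0.192), pfkp at -1.19 (adjusted p = 0.277) and slc16a12 at -0.79 (adjusted p = 0.172). These averages did not pass, although 1 copy of each did. Each average gives equal weight to both copies, whatever their counts and errors. A scarce or imprecisely measured copy can thus keep an average from passing. The average passed where neither copy did for eno1 at stage 17, at 0.995 (SE of 0.36, adjusted p = 0.0410 by the normal test), and for pgam5 and slc16a1 at stage 14, at 0.86 (adjusted p = 0.0254) and -0.82 (adjusted p = 0.0182). These adjusted p-values cover homeolog pairs only and treat copies from the same libraries as independent. They are therefore not comparable with the authors' adjusted p-values of single copies.

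**Figure D4:**
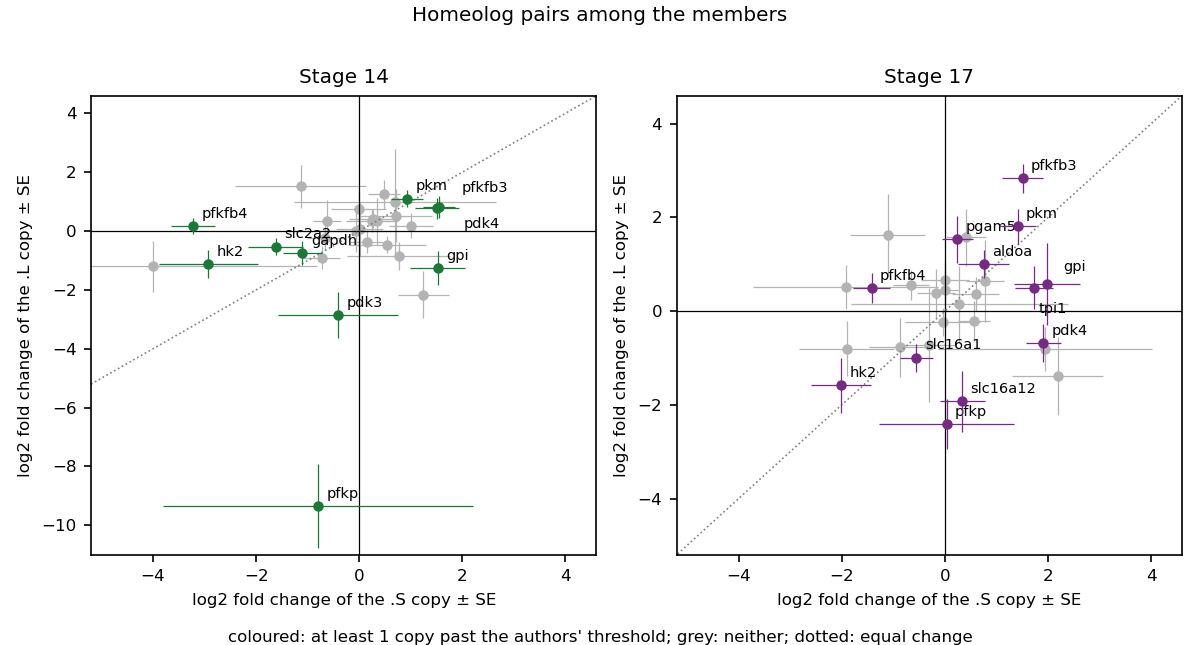
Log2 fold change of the .L copy (vertical axis) against the .S copy (horizontal axis) with standard errors for the 29 homeolog pairs at stage 14 (left) and stage 17 (right), coloured and named where at least 1 copy passed the authors' adjusted p of 0.05, with a dotted line of equal change. The pkm pair lies close to the line in both panels, and pfkfb4 lies far from it, with a negative .S and a positive .L copy.

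Between stages, 55 of the 75 members tested at both had the same sign and 20 the opposite sign per the authors' deposited tables. The share with the same sign over all genes was not computed. A difference of the log2 fold changes, tested by a normal test on both standard errors with Benjamini-Hochberg adjustment over 16194 genes, was found for 2 of the 75 members (2.67%), against 1.51% of all genes, and both were more positive at stage 17, as were 1.30% of all genes, while 0 members and 0.210% of all genes were more negative. For pfkfb3.L the difference, stage 17 minus stage 14, was 2.07 (SE of 0.47, adjusted p = 0.00214). For pfkp.L it was 6.94 (SE of 1.52, adjusted p = 0.00142), but it rests on the stage 14 value with an arm under the floor. Next came pfkfb4.S with 1.81 (SE of 0.55, adjusted p = 0.0639) and pfkfb1.S with 1.44 (SE of 0.48, adjusted p = 0.114). For the hexokinase hk1.L the difference was 1.42 (SE of 0.83, adjusted p = 0.693). With copies averaged, the stage differences of pfkfb3, 1.03 (SE of 0.37, adjusted p = 0.119), and pfkp, 3.89 (SE of 1.81, adjusted p = 0.316), did not pass, whereas that of eno1, 1.43 (SE of 0.45, adjusted p = 0.0480), did. The pfkp average gives equal weight to pfkp.S, which had means of only 4.55 and 13.9 and SEs of 3.01 and 1.30. Before adjustment, p was under 0.05 for 9 of the 75 members (12%), against 8.58% of all genes. Stage and batch label coincide and cannot be told apart.

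**Figure D5:**
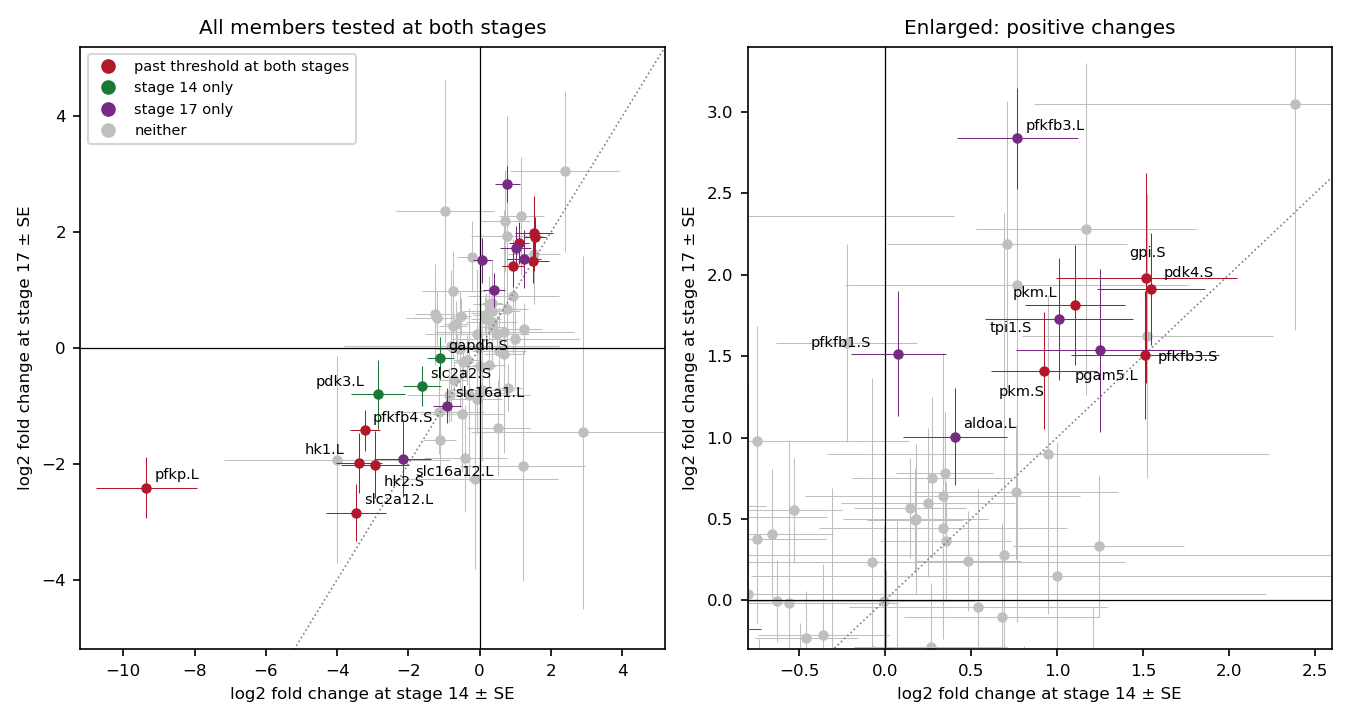
Log2 fold change at stage 17 (vertical axis) against stage 14 (horizontal axis) with standard errors for the 75 members tested at both stages (left), and an enlarged view of the positive changes (right), coloured by the stage at which the authors' adjusted p was under 0.05, with a dotted line of equal change. Genes past the threshold at both stages lie in the lower left or the upper right, and pfkfb3.L lies well above the line.

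Other genes around the pathway were taken from lists by role, 115 of them tested at each stage. Past the threshold per the authors' deposited tables were 5 positive and 20 negative genes at stage 14 and 7 positive and 8 negative at stage 17, with medians of -0.24 and -0.19 over all 115. Over all genes tested, 3.06% were positive and 5.62% negative past it at stage 14, and 4.96% and 5.00% at stage 17. The counts of the single lists below stand beside these same shares. All 5 positive genes of stage 14 and 6 of the 7 of stage 17 belonged to the serine branch, which leaves glycolysis at 3-phosphoglycerate, out of 9 genes tested. The transaminase gene psat1.S, for the second enzyme of the branch, had 1425 in the numerator arm and 4.05 in the denominator arm at stage 14 and 850 and 26.8 at stage 17. Its log2 fold changes were 8.46 (SE of 0.55, adjusted p = 2.79e-49) and 4.99 (SE of 1.05, adjusted p = 1.06e-04), per the authors' deposited table. For psph.S, which encodes the phosphatase of the last step, levels were 2007 and 501 at stage 14 and 2104 and 387 at stage 17 (adjusted p = 2.93e-11 and 1.93e-05), per the authors' deposited tables. Fructose 1,6-bisphosphatase, encoded by fbp1 and running against phosphofructokinase in gluconeogenesis, was lower in the numerator arm in both copies. For fbp1.S the authors' deposited tables gave -1.57 (SE of 0.25, adjusted p = 5.28e-08) and -1.34 (SE of 0.34, adjusted p = 0.00255), with 744 and 2204 at stage 14 and 593 and 1504 at stage 17. For fbp1.L they gave -1.66 (SE of 0.56, adjusted p = 0.0384) and -2.14 (SE of 0.49, adjusted p = 5.77e-04), per the authors' deposited table.

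A further hexokinase, hkdc1, which was chosen for naming after its values were seen, was negative past the threshold at stage 14 in both copies, with -2.39 (SE of 0.51, adjusted p = 1.35e-04) for hkdc1.L and -3.34 (SE of 0.87, adjusted p = 0.00309) for hkdc1.S per the authors' deposited table. At stage 17 the hkdc1 copies stood at -1.04 (SE of 0.43, adjusted p = 0.114) and -0.89 (SE of 0.50, adjusted p = 0.297) per the authors' deposited table. The glycerol 3-phosphate dehydrogenase gpd1.L, which draws on a glycolytic intermediate, had 84.9 in the numerator arm and 784 in the denominator arm at stage 14 and 656 and 2044 at stage 17, with -3.21 (SE of 0.62, adjusted p = 1.37e-05) and -1.64 (SE of 0.32, adjusted p = 1.79e-05), per the authors' deposited tables. Of the genes for pyruvate entry and partners of pyruvate dehydrogenase, 1 of 11 was negative past the threshold at stage 14 and 2 of 10 at stage 17, namely the mitochondrial carrier subunit mpc1.L at -1.09 (SE of 0.34, adjusted p = 0.0230) and -1.09 (SE of 0.37, adjusted p = 0.0408), and at stage 17 also the phosphatase pdp2.L at -1.73 (SE of 0.58, adjusted p = 0.0370), per the authors' deposited tables. These 2 were named after their values were seen. Of the 31 genes of the tricarboxylic acid cycle, 1 was negative at stage 14, me2.S at -1.62 (SE of 0.29, adjusted p = 3.09e-06), and 1 was positive at stage 17, sdha.L at 0.77 (SE of 0.27, adjusted p = 0.0499), named after its value was seen, per the authors' deposited tables. The 12 genes of the pentose phosphate pathway had 0 past the authors' threshold at either stage, and 1 of them, h6pd.L at stage 14, had an unadjusted p-value under 0.05. For unadjusted p-values the share of all genes within a stage was not computed.

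Over all genes tested, 5.62% passed on the negative side at stage 14 and 5.00% at stage 17. Among 20 genes for regulators of the pathway, 8 passed on the negative side at stage 14 and 2 did so at stage 17, and 0 passed on the positive side. The list includes MYC and subunits of hypoxia-inducible factors, some of which are known to drive glycolytic genes in mammals. The list is not limited to such activators, and vhl.S was also negative past the threshold at stage 14. It had 0.19 in the numerator arm, under the floor of 3, and 76.9 in the denominator arm (authors' adjusted p = 6.06e-06). What the changes of these regulators mean for glycolysis was not tested. In the authors' deposited tables myc.L was at -2.16 (SE of 0.35, adjusted p = 9.56e-08) at stage 14 and -0.08 (SE of 0.37, adjusted p = 0.946) at stage 17, a difference of 2.09 (SE of 0.51, adjusted p = 0.00735 by the normal test). For epas1.S, which encodes a hypoxia-inducible factor subunit, the authors' deposited tables gave -2.62 (SE of 0.41, adjusted p = 3.46e-08) at stage 14 and -0.98 (SE of 0.44, adjusted p = 0.164) at stage 17. Values of hif1a, another such subunit on the list, are not given here. Of the other hypoxia-responsive genes, 4 of 14 were negative past the threshold at stage 14 and 0 of 15 at stage 17, while an authors' adjusted p under 0.05 with a positive sign occurred in 0 at both stages.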

How the data were processed

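RNA from neural crest tissue was sequenced in 12 samples, 3 in each of 4 groups, after unstranded library preparation, per the labels' protocols, so a gene and an antisense partner cannot be told apart. Reads were processed with STAR 2.7.3a and DESeq2, per the submitters' processing notes. The counter, genome build, annotation and filters are not given in the sources used here. Per the file headers, the authors' deposited tables, 1 per stage, hold for each gene the mean normalised count as a signal over samples, the log2 fold change with its standard error, the Wald score, the p-value and the adjusted p-value. Rows without a gene name were left out, which left 18206 genes at stage 14 and 18556 at stage 17. Of these, 17088 and 16965 had an adjusted p, and shares of all genes are over them. The lowest p-value among them and its adjusted value imply an adjustment by the authors over 17088 rows at stage 14 and 22197 at stage 17. Adjusted p-values of the stages thus rest on unlike sets of rows. Raw depth is unknown.

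From these, arm means were computed on the assumption that the mean covers both arms equally, with a floor of 3 normalised counts for a fold. An arm under it gives a lower bound. Intervals are 95% normal intervals. Stage differences and averages of homeologs were tested with a two-sided normal test and Benjamini-Hochberg adjustment, in Python 3.11.15 with SciPy 1.17.1. For averages the adjustment ran over homeolog pairs only. The stage test was also run on data simulated with normal errors of the deposited size, which is what the test assumes. That run cannot show whether the deposited errors are themselves right. Averages weight both copies equally and treat their errors as independent, although the copies share libraries. Other thresholds, adjustments, centring, count minimums and member sets were tried as alternatives.

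Every gene that the name rule found may be named, in full if its authors' adjusted p was under 0.05 at either stage. Outside the rule, up to 10 genes per stage with the lowest p-values may be named, and hkdc1, mpc1.L, pdp2.L, sdha.L and h6pd.L were added after their values were seen. The members and lists were chosen with earlier results of these data known. Symbols of all members were found in RefSeq. No sequences or coordinates are given, and values of some members counted here are not reported.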

Additional observations from a re-analysis of the deposited data

Results flagged for a closer look

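The change between the arms differed between stages for pfkfb3.L, by a test of the difference itself, with 2.07 (SE 0.47) on the log2 scale for stage 17 minus stage 14 and an adjusted p of 0.00214. The log2 fold changes in the authors' deposited tables were 2.84 at stage 17 and 0.77 at stage 14. With both pfkfb3 copies averaged, the difference was 1.03 and did not pass (adjusted p = 0.119 by the normal test, over homeolog pairs only). For pfkp.L the same test gave 6.94 (SE 1.52, adjusted p = 0.00142), with 96.8 normalised counts in the numerator arm and 515 in the denominator arm at stage 17. Its stage 14 level of 0.19 in the numerator arm, against 124 in the other, lies below the floor of 3 normalised counts, so the size of this difference is not measured.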

How the results depend on the processing

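The 13 members past the threshold at stage 14 became 8 at an adjusted p under 0.01, and the 17 of stage 17 became 8 of 29 genes with homeologs averaged, where genes rather than copies are counted. Averaging gives equal weight to both copies, whatever their counts and errors. It also leaves out members without a partner copy, among them hk1.L, pfkfb1.S and slc2a12.L, which passed at stage 17. Before averaging, 10 of the 29 pairs had 1 copy past the threshold at stage 17 and 2 had both. Of the stage differences, 1 passed with homeologs averaged, that of eno1, by an adjustment over homeolog pairs only, while those of pfkfb3 and pfkp did not. Without members that have an arm at the floor, an alternative chosen after seeing the data, the count was 1, pfkfb3.L. Under the other alternatives the counts stayed within 1.5 times. Fold changes were also centred on the median of genes with a mean of at least 100, with the adjustment recomputed over every p-value. By this, 39 of 40 member values kept their side of the threshold and gpi.S at stage 14 did not (1.51, adjusted p = 0.0515 by the normal test). Of the members not past the threshold, the log2 change needed to pass ranged from 0.76 to 9.05 at stage 14, with a median of 1.76, and from 0.72 to 8.60 at stage 17, with a median of 1.71. Leaving out single samples was not run, because the tables used hold no values per sample. No paired analysis was possible because the groups share no replicate numbers and the tables used hold no values per sample.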
